A study of Mus musculus with 5 samples.

Results

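The interleukin-6 (IL-6) family of cytokines signals through a small set of shared receptors, and 8 genes of this receptor pathway were followed here in mouse ear skin with and without Cd1d. The genes were Il6ra, Il6st, Osmr, Lifr, Il11ra1, Jak1, Stat3 and Socs3, matched by Entrez identifier to 8 of 27179 rows of the count table. They were picked because Il6ra had lower values in knockout (KO) than in control skin. The members were thus chosen on the KO against control contrast, and their values in it are given as a description, with no test. Tests are given for 53 other genes of the pathway. The samples were ear skin of B6 mice, 3 titled Cd1d +/- (replicates 1, 2 and 3) and 2 titled Cd1d -/- (replicates 1 and 2). The genotype tag calls the first group WT, so these libraries are called controls. No treatment, age or sex is given in the labels used here, nor whether each library came from a separate mouse, so the p-values measure only the spread between these 5 libraries.

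Most cytokines of this family signal through gp130, the shared signalling chain encoded by Il6st, and some first bind a private receptor chain. Il6ra and Il11ra1 encode the private chains for IL-6 and IL-11, which do not signal themselves. Osmr and Lifr encode signalling chains that pair with gp130 for oncostatin M and for leukaemia inhibitory factor. The kinase JAK1, bound to the receptor tails, then phosphorylates the transcription factor STAT3, and STAT3 induces Socs3, which binds gp130 and JAKs and shuts the signal off. In skin the pathway is known for its part in wound repair, keratinocyte growth and inflammation.

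Because Socs3 is a classical STAT3 target, the promoters of the members were searched for the STAT motif TTCNNNGAA, which reads the same on both strands. RefSeq promoter windows (build GRCm38.p6, 250 bases before to 50 after a transcript start) existed for all 8 members, 10 windows in all. Of these, 1 held the motif, in Socs3, against 8.30% of 32851 windows of the same length over all genes. The Socs3 window (chr11:117969317-117969616, minus strand) is shown with the motif TTCTTAGAA in capitals, at position -154 from the transcript start. The Il6ra window (chr3:89913147-89913446, minus strand) is shown beside it because Il6ra led to the choice of the members, and it has no capitals since these letters are not in it.
Socs3: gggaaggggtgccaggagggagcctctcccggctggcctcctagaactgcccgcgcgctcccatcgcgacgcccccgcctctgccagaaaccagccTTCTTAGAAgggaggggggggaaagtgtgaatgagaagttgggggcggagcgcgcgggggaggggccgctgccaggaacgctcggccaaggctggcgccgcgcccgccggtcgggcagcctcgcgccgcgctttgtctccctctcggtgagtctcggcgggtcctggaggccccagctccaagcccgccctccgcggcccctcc
Il6ra: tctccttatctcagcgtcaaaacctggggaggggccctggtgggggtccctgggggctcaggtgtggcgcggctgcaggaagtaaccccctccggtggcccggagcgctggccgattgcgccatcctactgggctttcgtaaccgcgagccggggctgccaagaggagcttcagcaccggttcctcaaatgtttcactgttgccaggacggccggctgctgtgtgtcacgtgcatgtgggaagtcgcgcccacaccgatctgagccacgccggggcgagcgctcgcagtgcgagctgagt

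The 5 libraries held 32353957 to 79160005 counts, so that 1 read was worth 0.0119 to 0.0303 CPM (counts relative to library size, the usual CPM scale, with TMM normalisation). Cd1d1, the gene targeted in the KO, had 6.61, 9.87 and 5.52 CPM in the controls and 1.19 and 1.12 CPM in KO, so each library matched its label. Markers of skin were abundant. Summed over 5 genes each, basal keratinocyte markers lay between 12810 and 15760 CPM and suprabasal markers between 25730 and 40510 CPM. Suprabasal keratinocyte markers were at 25730 to 32720 CPM in controls and at 36830 and 40510 CPM in KO. These 5 genes did not move together. Lor had 10370, 9650 and 15130 CPM in controls and 23490 and 17620 CPM in KO. Krtdap was also higher in both KO libraries, Krt1 and Krt10 overlapped, and Dsg1a was lower in both KO libraries. Endothelial markers were at 199.7 to 223.7 CPM in controls and at 169.1 and 176.2 CPM in KO, and skeletal muscle markers at 3102 to 3399 CPM and at 3646 and 4239 CPM. Adipocyte markers were at 531.5 to 878 CPM in controls and at 878 and 1032 CPM in KO. Hair follicle markers stood at 581.6 CPM in KO replicate 1 and at 11.2 to 19.7 CPM in the other libraries. The summed macrophage, fibroblast, Schwann cell, cartilage and basal keratinocyte markers overlapped between the groups. Among the macrophage markers, Lyve1 and Cd163 were lower in both KO libraries, and Adgre1, Csf1r, Cd68 and Mrc1 overlapped. The fibroblast marker Pdgfra was lower in both KO libraries, and Col1a1, Col1a2, Col3a1, Dcn and Lum overlapped. Of the cartilage markers, Acan was lower and Comp higher in both KO libraries, and Col2a1 and Cnmd overlapped. Among the basal markers, Itga6 was lower in KO (log2 fold change -0.78, SE 0.14, edgeR adjusted p = 0.0219). Trp63 and Col17a1 were also lower in both KO libraries, Krt5 was higher in both, and Krt14 overlapped. T cell markers were at 35.3 to 40.0 CPM in controls and at 39.6 and 51.3 CPM in KO. Of these, Trac had 0.403, 0.639 and 0.425 CPM in controls and 0.118 and 0.117 CPM in KO. Cd3d was higher in both KO libraries, and Cd3e, Cd3g and Cd247 overlapped. Neutrophil markers were at 1.43 to 3.22 CPM in all libraries, with the defining marker Ly6g at 0 counts in each. The part of these cell types in the values that follow was not tested. In bulk skin, fewer cells of a type and less RNA per cell cannot be told apart.

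Il6ra, the private IL-6 receptor chain (Entrez 16194, chromosome 3, 89869324 to 89913196 on GRCm38), had 59.2, 50.4 and 62.6 CPM in control replicates 1, 2 and 3. In KO replicates 1 and 2 it had 35.0 and 36.0 CPM. Both KO libraries lay below every control library, and the KO pair differed by far less than the controls did among themselves. The group means were 57.4 ± 6.27 CPM (SD, n = 3) and 35.5 ± 0.757 CPM (SD, n = 2). KO against control gave a log2 fold change of -0.69 (SE 0.13), that is, a KO level at 61.9% of control. This is the value on which the 8 genes were chosen.

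**Figure D1:**
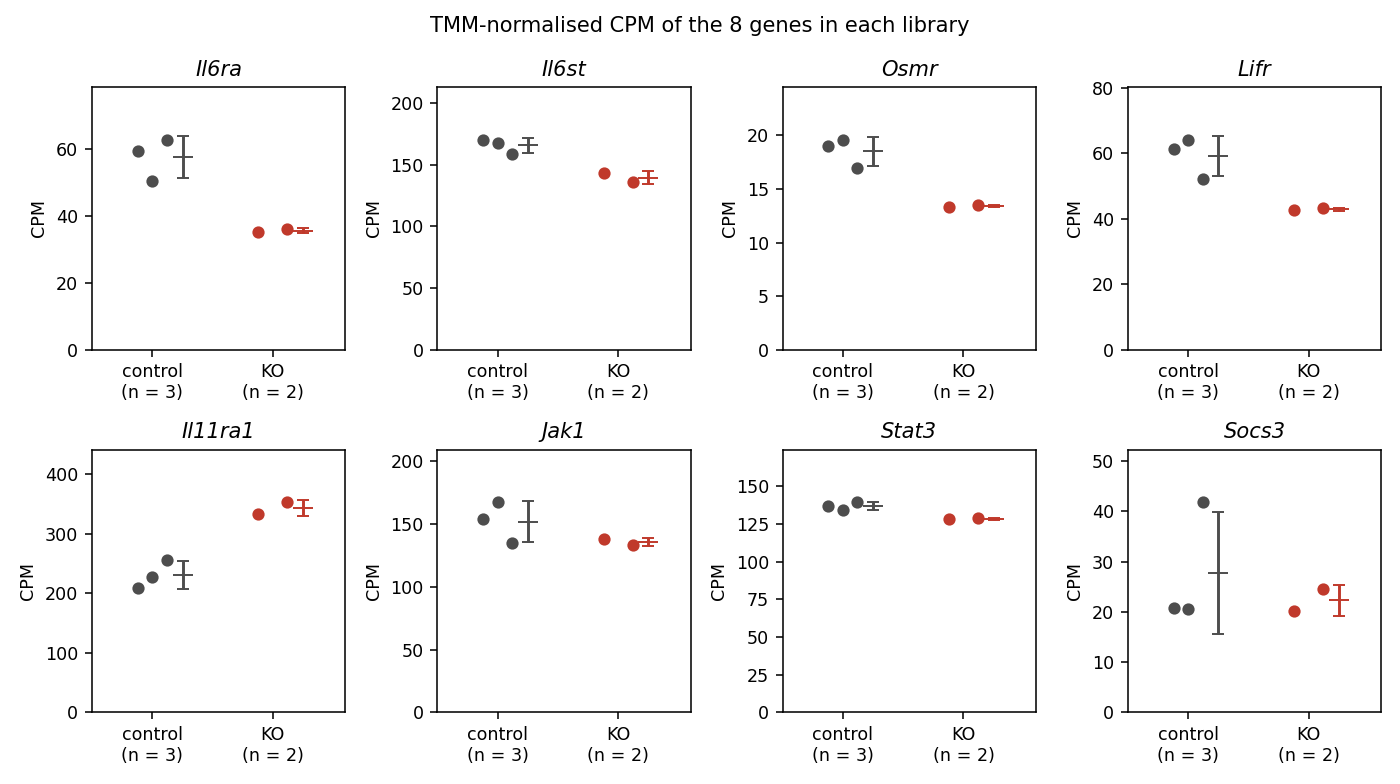
Each panel plots the TMM-normalised CPM (y axis, from 0) of a gene in the 3 control libraries (grey points) and the 2 KO libraries (red points), with the group mean and SD as a bar to the right. Il6ra, Il6st, Osmr, Lifr and Stat3 have both KO points under all control points, Il11ra1 has both above, and Jak1 and Socs3 overlap.

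The shared signalling chains had smaller differences of the same sign. Il6st, the gp130 gene (chromosome 13, 112464070 to 112506860), had 170.1, 167.7 and 158.6 CPM in controls and 143.3 and 135.5 CPM in KO. Its log2 fold change was -0.25 (SE 0.11), and the groups did not overlap. The level of Il6ra relative to Il6st within a library was 0.301 to 0.395 in the controls and 0.244 and 0.266 in KO. This ratio carries the Il6ra value on which the genes were chosen and adds no separate evidence.

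Osmr and Lifr followed each other closely. Osmr, the oncostatin M receptor chain (chromosome 15, 6813568 to 6874968), had 19.0, 19.6 and 17.0 CPM in controls and 13.3 and 13.5 CPM in KO, a log2 fold change of -0.47 (SE 0.13). Lifr, the leukaemia inhibitory factor receptor chain (chromosome 15, 7090610 to 7197489), had 61.2, 64.1 and 52.2 CPM in controls and 42.6 and 43.2 CPM in KO, a log2 fold change of -0.46 (SE 0.13). For both genes every KO value was under every control value, and control replicate 3 was the lowest control. The counts of Osmr relative to those of Lifr were 0.306 to 0.326 in the controls and 0.312 in each KO library. Of the 28 pairs among the 8 members, Osmr and Lifr had the most similar profile over the 5 libraries, with a root mean square difference of 0.03 in centred log2 CPM. The next pair, Il6st and Jak1, was at 0.085 and the most distant, Il6ra and Il11ra1, at 0.631. The 2 genes are neighbours in the genome, 215.6 kb apart.

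Il11ra1, the private IL-11 receptor chain (Entrez 16157, chromosome 4, 41760443 to 41769473), went the other way. It had 208.3, 226.6 and 255.2 CPM in controls and 333.7 and 352.5 CPM in KO. Both KO libraries were above every control library. The means were 230.0 ± 23.7 CPM (SD, n = 3) and 343.1 ± 13.3 CPM (SD, n = 2), a log2 fold change of 0.58 (SE 0.12) and a KO level at 149.2% of control. Relative to Il6st within a library, Il11ra1 was at 1.22 to 1.61 in the controls and at 2.33 and 2.60 in KO.

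The Il11ra1 value has limits of position and sequence. The gene ends within the span of Ccl27a, a chemokine gene of keratinocytes that spans 41769467 to 41774225 and rose in KO. Ccl27a had 30.3, 31.7 and 41.0 CPM in controls and 57.5 and 50.3 CPM in KO, a log2 fold change of 0.66 (SE 0.15, edgeR adjusted p = 0.0421). The sources used here do not state how reads shared by neighbours were counted, and the part of Ccl27a in the Il11ra1 value was not tested. A copy, Gm13305, has a transcript 98.6% identical to that of Il11ra1 over 2578 bases, and Il11ra2 one that is 98.1% identical over 421 bases. Gm13305 received only 25 to 52 counts per library and Il11ra2 111 to 210, against 8413 to 17563 for Il11ra1.

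Jak1 and Stat3, downstream of every receptor chain named here, had small differences. Jak1 (chromosome 4, 101151974 to 101265282) had 153.7, 167.3 and 135.1 CPM in controls and 138.2 and 133.2 CPM in KO, so the groups overlapped. Its log2 fold change was -0.16 (SE 0.13). Stat3 (chromosome 11, 100886806 to 100939594) had 136.8, 134.5 and 139.3 CPM in controls and 128.0 and 128.7 CPM in KO. The Stat3 groups did not overlap, but the log2 fold change of -0.09 was smaller than its standard error of 0.11. Stat3 was the steadiest member among the controls, with an SD of 2.36 CPM around a mean of 136.9 CPM (n = 3). One end of Jak1 lies within the span of Raver2 (101069038 to 101152370), which had few reads, at 3.56 ± 0.499 CPM in controls (SD, n = 3).

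Socs3, the feedback inhibitor (chromosome 11, 117966079 to 117970336), separated a single library from the others. It had 20.7, 20.6 and 41.8 CPM in control replicates 1, 2 and 3, and 20.2 and 24.5 CPM in KO. Control replicate 3 was high and the other 4 libraries were close together, so the groups overlapped. KO against control gave a log2 fold change of -0.30 (SE 0.33), and of 0.11 without control replicate 3. The level of Socs3 relative to Stat3 was 0.300 in control replicate 3 and 0.151 to 0.190 elsewhere.

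Among 21 known STAT3 target genes, control replicate 3 had the highest value of the 5 libraries for 10, and for 11 it did not. It had the highest value for 22.6% of all tested genes. The margin was small for several of the 10, as for Mcl1, a survival gene, at 237.7 CPM against 236.5 CPM in KO replicate 2. The genes named next were chosen after their values were seen. Junb, an early response transcription factor, was at 324.0 CPM against 140.2 to 233.6 CPM elsewhere. Zfp36, which promotes decay of cytokine mRNAs, was at 91.3 CPM against 42.3 to 45.0 CPM. Bcl6, a transcriptional repressor, was at 37.1 CPM against 19.7 to 22.5 CPM. Junb and Zfp36 are also early response genes of many other signals. Control replicate 3 was the library with the fewest counts, and the part of depth in this pattern was not tested.

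Compared per kilobase of the longest annotated transcript, the receptor chains covered a wide range of levels. In the controls Il11ra1 was highest, at 88.3 ± 9.08 CPM per kb (SD, n = 3), followed by Jak1 at 31.0 ± 3.30, Stat3 at 22.7 ± 0.391 and Il6st at 19.1 ± 0.695 CPM per kb. Socs3 followed at 10.9 ± 4.79, Il6ra at 6.64 ± 0.726, Lifr at 6.12 ± 0.644 and Osmr at 3.37 ± 0.248 CPM per kb. The control values of Il6ra (5.84 to 7.25 CPM per kb) and Lifr (5.40 to 6.64 CPM per kb) overlapped, and no other neighbours in this order did. In KO the level of Lifr was 4.44 ± 0.044 and that of Il6ra 4.11 ± 0.0876 CPM per kb (SD, n = 2), so these neighbours changed places. The private IL-11 chain thus had more reads per kilobase than gp130 in every library, and the private IL-6 chain fewer.

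Of the 8 members, 8 passed the filter on low counts, and their median log2 fold change was -0.28 against -0.02 over all 17472 tested genes. In the fit over all genes (edgeR quasi-likelihood test, Benjamini-Hochberg threshold 0.05), 1 member was past the threshold as lower, Il6ra, where 1.05% of all genes were. Another member, Il11ra1, was past it as higher, where 2.71% were (3.76% in either direction). Both KO libraries lay below every control for 5 members, against 20.0% of all genes, and above for 1, against 19.9%. The members were chosen on this contrast, so nothing is read from these counts. With scaling to library size alone, 268 of all genes were higher and 974 lower, against 474 and 183. The median of all genes was then -0.17, and Il6ra, Osmr and Lifr were the members past the threshold, all as lower. Neither Il6ra nor Il11ra1 was past the threshold without control replicate 1, KO replicate 1 or KO replicate 2. Without control replicate 3 it was passed by 4 members, Il6ra, Osmr, Lifr and Il11ra1, and by 3277 of all 17403 genes tested there.

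The members differ in transcript length, and so did genes that were higher and lower in KO. Spearman's rho between transcript length and log2 fold change was -0.55 over 15809 genes of the same 5 libraries. The longest transcripts of Il6ra, Il6st and Lifr have 8639, 8678 and 9655 bases. Among 863 tested genes of at least 8000 bases, the median log2 fold change was -0.32 and 90% were negative, with 8.23% past the threshold as lower and none as higher. Il6st, at -0.25, lay above that median, and Lifr and Il6ra below it. Osmr, Jak1 and Stat3 have 5491, 4906 and 6042 bases, a range (4000 to 8000) in which the median was -0.18. Il11ra1 and Socs3, with 2605 and 2552 bases, fall where the median was 0.01 and 1.08% of 6493 genes were past the threshold as higher.

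**Figure D2:**
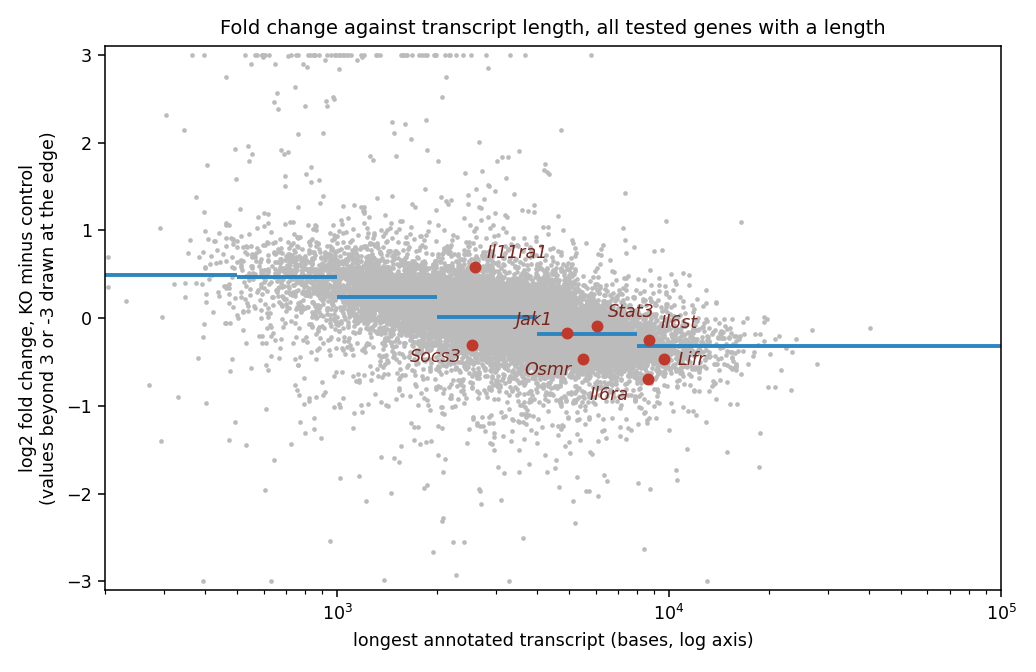
Log2 fold change of KO minus control (y axis) against the longest annotated transcript in bases (log x axis) for 15809 tested genes (grey), with the median of each length range as a blue line and the 8 members in red. Il11ra1, Il6st, Jak1 and Stat3 lie above the median of their range, and Il6ra, Osmr, Lifr and Socs3 lie below theirs.

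Each library's smooth trend on transcript length and GC content was then removed. Il6ra, Il11ra1, Osmr and Lifr all kept their signs, with values nearer to 0. In that fit the log2 fold change of Il6ra was -0.41 (SE 0.09) and that of Il11ra1 0.49 (SE 0.09). Osmr had -0.25, Lifr -0.11 and Socs3 -0.41. Il6st was at 0.06, Jak1 at 0.01 and Stat3 at 0.08, so their negative values were not seen there. With length offsets alone Il6ra was at -0.39 (SE 0.14), Il11ra1 at 0.53 (SE 0.12), Il6st at 0.06 and Stat3 at 0.12, and none of the 8 members was past the threshold (edgeR, 2 at an unadjusted p under 0.05). Over all 17 other settings Il6ra lay between -0.84 and -0.35 and Il11ra1 between 0.43 and 0.66.

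**Figure D3:**
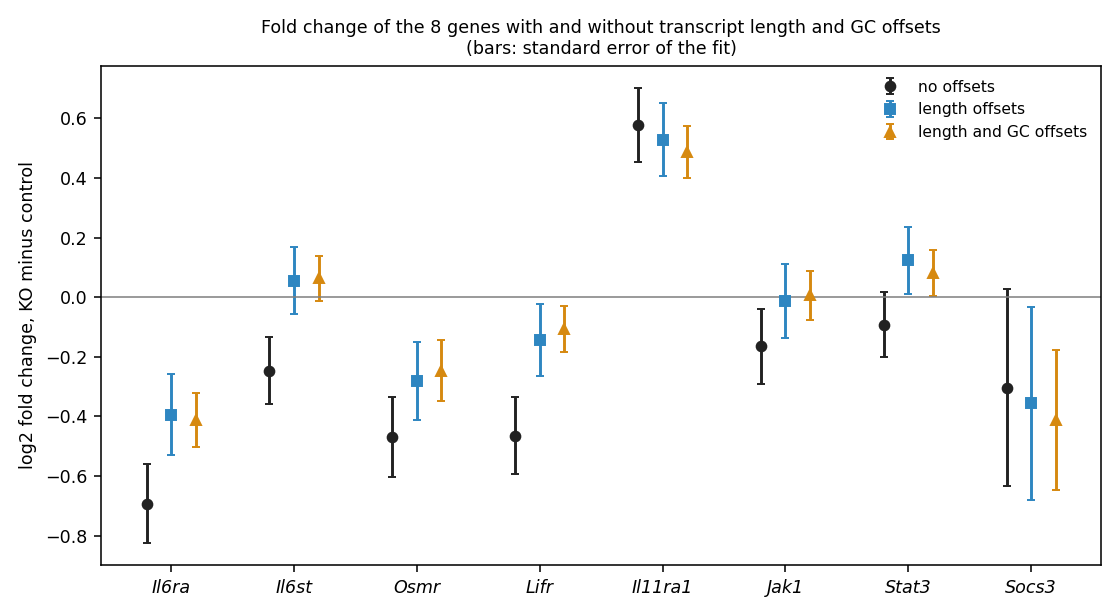
Log2 fold change of KO minus control (y axis) for the 8 members, with the standard error of the fit as bars, without offsets (black), with length offsets (blue) and with length and GC offsets (orange). Il6ra stays below 0 and Il11ra1 above 0 in the 3 fits, while Il6st and Stat3 move from below 0 to above it.

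Il6ra lies on the chromosome of the targeted gene, 2.86 Mb from Cd1d1. Within 5 Mb of Cd1d1, 152 other genes were tested, and 11 were higher and 6 lower in KO (edgeR, adjusted p under 0.05), 11.2% against 3.76% of all genes. Il6ra, on which the members were chosen, is counted in it. Within 2 Mb 2 of 64 genes were higher and 3 lower (7.81%). Within 10 Mb 27 of 304 were higher and 7 lower (11.2%). The share of higher and lower genes together was thus not larger nearer to Cd1d1. Lower genes alone were 3 of 64, 6 of 152 and 7 of 304 within 2, 5 and 10 Mb, against 1.05% of all genes. Their share was larger nearer to Cd1d1, but it rests on few genes. The 6 lower genes within 5 Mb were Il6ra, Rps3a1, Kirrel, Ash1l, Tpm3 and Gucy1b1. The higher genes included the S100 genes S100a1, S100a4, S100a6, S100a13, S100a14 and S100a16, which lie beyond Il6ra at 3.50 to 3.60 Mb. The median log2 fold change in the window was 0.06. With length offsets alone 1 of the 152 genes was past the threshold, without control replicate 1 or KO replicate 1 none was (29 and 27 at an unadjusted p under 0.05), without KO replicate 2 it was 3, and without control replicate 3 it was 44. Whether position has a part in the Il6ra value was not tested.

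**Figure D4:**
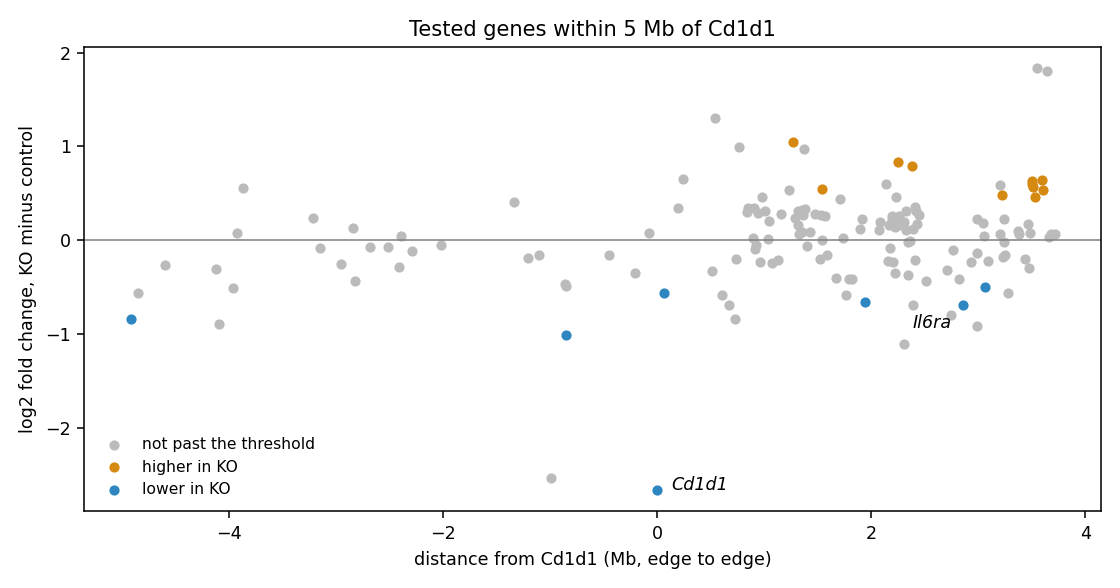
Log2 fold change of KO minus control (y axis) for tested genes within 5 Mb of Cd1d1 against their distance from it in Mb (x axis), with genes past the threshold in orange (higher in KO) and blue (lower). Il6ra is 1 of 6 lower genes besides Cd1d1, with higher genes on the same side.

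Of the 53 other pathway genes, 49 could be tested, and 1 passed the threshold of the fit over all genes, where 3.76% of all genes did. This was Adam10, a membrane protease known to shed receptors, the IL-6 receptor among them. Adam10 had 45.6, 45.1 and 39.5 CPM in controls and 22.8 and 27.3 CPM in KO, with both KO libraries below every control. It fell by 0.80 on the log2 scale (SE 0.13, edgeR adjusted p = 0.0203). With length and GC offsets it still passed. With length offsets alone its log2 fold change was -0.67 (edgeR adjusted p = 0.0902). It was -0.76 without control replicate 1, -0.67 without KO replicate 1 and -0.93 without KO replicate 2 (edgeR adjusted p = 0.127, 0.343 and 0.0661). Adam17, the related protease that sheds the IL-6 receptor in inflammation, had 80.4, 81.0 and 65.5 CPM in controls and 72.1 and 67.9 CPM in KO (log2 fold change -0.11, SE 0.13, and 0.06 with length and GC offsets). The difference between the proteases was not tested.

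Transcripts of the ligands were scarce, and 0 of 8 ligand genes that could be tested passed (edgeR, 1 at an unadjusted p under 0.05). For Il6 itself the controls held 8, 10 and 2 reads and the KO libraries 2 and 3, under the filter on low counts. Il31, the itch cytokine of T cells, had 0 counts in every library, which allows at most 0.0356 to 0.091 CPM (3 counts in a library, for counting error alone). Cntf and Il27 also were under the filter. Osm, the oncostatin M gene, was at 0.182 to 0.313 CPM in all libraries, and Il11 at 0.58 to 1.2 CPM. Lif, the gene for leukaemia inhibitory factor, had 2.95, 2.36 and 3.0 CPM in controls and 1.86 and 1.94 CPM in KO. The groups of Lif did not overlap, but its log2 fold change of -0.54 (SE 0.24) did not pass (edgeR adjusted p = 0.223). Ctf2 had 23, 4 and 6 reads in controls and 2 in each KO library, with both KO libraries lower in CPM. It did not pass (log2 fold change -1.93, SE 0.98, edgeR adjusted p = 0.282).

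None of the 4 other receptor genes passed (edgeR, 1 at an unadjusted p under 0.05). Il31ra, which pairs with the Osmr product to form the IL-31 receptor, had 1.08, 0.887 and 0.667 CPM in controls and 0.548 and 0.327 CPM in KO (log2 fold change -1.01, SE 0.41, edgeR adjusted p = 0.188). Cntfr, the private chain for ciliary neurotrophic factor, varied more within the groups than between them. It had 5.29, 22.3 and 37.1 CPM in controls and 11.7 and 28.5 CPM in KO. Il11ra2 had 1.32, 1.70 and 3.43 CPM in controls and 2.53 and 4.90 CPM in KO, and its similarity to Il11ra1 makes its counts uncertain. Without control replicate 3 Il11ra2 passed as higher, with a log2 fold change of 1.30 (edgeR adjusted p = 0.0158). That fit called 3277 genes in all, against 657 with this library kept.

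The other kinases, STAT proteins and the adaptor Ptpn11 had negative values in all 6 cases, and 0 of 6 passed (edgeR, 2 at an unadjusted p under 0.05). Their median log2 fold change was -0.22, and the lowest, -0.37, was that of Jak2. Jak2, a further kinase bound to these receptors, had 37.4, 37.4 and 31.7 CPM in controls and 28.6 and 26.5 CPM in KO (SE 0.13, edgeR adjusted p = 0.129). It passed as lower without control replicate 3 (log2 fold change -0.44, edgeR adjusted p = 0.0139), a fit that called 3277 genes in all. With length and GC offsets the value of Jak2 was -0.16, and 4 of the 6 genes were negative. The longest transcripts of the 6 genes have 3958 to 7442 bases. Of all 17472 tested genes, 9148 had a negative value. Among genes of 4000 to 8000 bases 77% were negative, with a median of -0.18.

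Among inhibitors 0 of 8 passed (edgeR, 1 at an unadjusted p under 0.05), with a median log2 fold change of 0.00. Socs1, which inhibits JAK kinases, had 13.0, 15.7 and 18 CPM in controls and 22.2 and 24.7 CPM in KO. Its KO values were above every control, with a log2 fold change of 0.59 (SE 0.16, edgeR adjusted p = 0.0625). It passed without control replicate 2 (0.60, edgeR adjusted p = 0.0334), without control replicate 3 (0.71, edgeR adjusted p = 0.00406) and with DESeq2 (0.60, adjusted p = 0.0105). Socs2 and Cish, further feedback inhibitors of this family, had log2 fold changes of -0.01 (SE 0.17) and -0.00 (SE 0.15), and of 0.15 and 0.10 once length and GC content were offset.

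Of the 21 known STAT3 target genes 0 passed (edgeR, 3 at an unadjusted p under 0.05), with a median log2 fold change of 0.07. Cebpb, a transcription factor of the acute phase and of keratinocyte differentiation, had 190.5, 223.3 and 358.5 CPM in controls and 438.6 and 437.9 CPM in KO. Its log2 fold change was 0.77 (SE 0.22, edgeR adjusted p = 0.083), and 1.08 without control replicate 3 (edgeR adjusted p = 0.000323). With length and GC offsets it was 0.37 for Cebpb and 0.18 for Lrg1, whose transcripts have 1504 and 1408 bases. In that fit 13 of the 21 targets were negative and their median was -0.11. Lrg1, a secreted glycoprotein of the acute phase, had 23.2, 23.1 and 27.4 CPM in controls and 42.0 and 31.6 CPM in KO (0.59, SE 0.15, edgeR adjusted p = 0.0575). Lrg1 passed without control replicate 2 (0.55, edgeR adjusted p = 0.0396) and without control replicate 3 (0.67, edgeR adjusted p = 0.00568). These fits called 1334 and 3277 genes in all, against 657 with all libraries. Timp1, an inhibitor of matrix proteases, had 16.8, 21.8 and 20.6 CPM in controls and 23.8 and 27.3 CPM in KO (0.37, SE 0.15, edgeR adjusted p = 0.174). Its value was -0.05 with length and GC offsets. Both KO libraries were above every control for 5 of the 21 genes and below for 1, against 19.9% and 20.0% of all genes. Over the 49 pathway genes together, 9 had an unadjusted p under 0.05, as did 21.9% of all tested genes. DESeq2 called 4 of the 49 genes (Adam10 as lower, and Socs1, Cebpb and Lrg1 as higher) and limma voom called 1. Of all 17472 genes, DESeq2 called 1834 and limma voom 627.

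**Figure D5:**
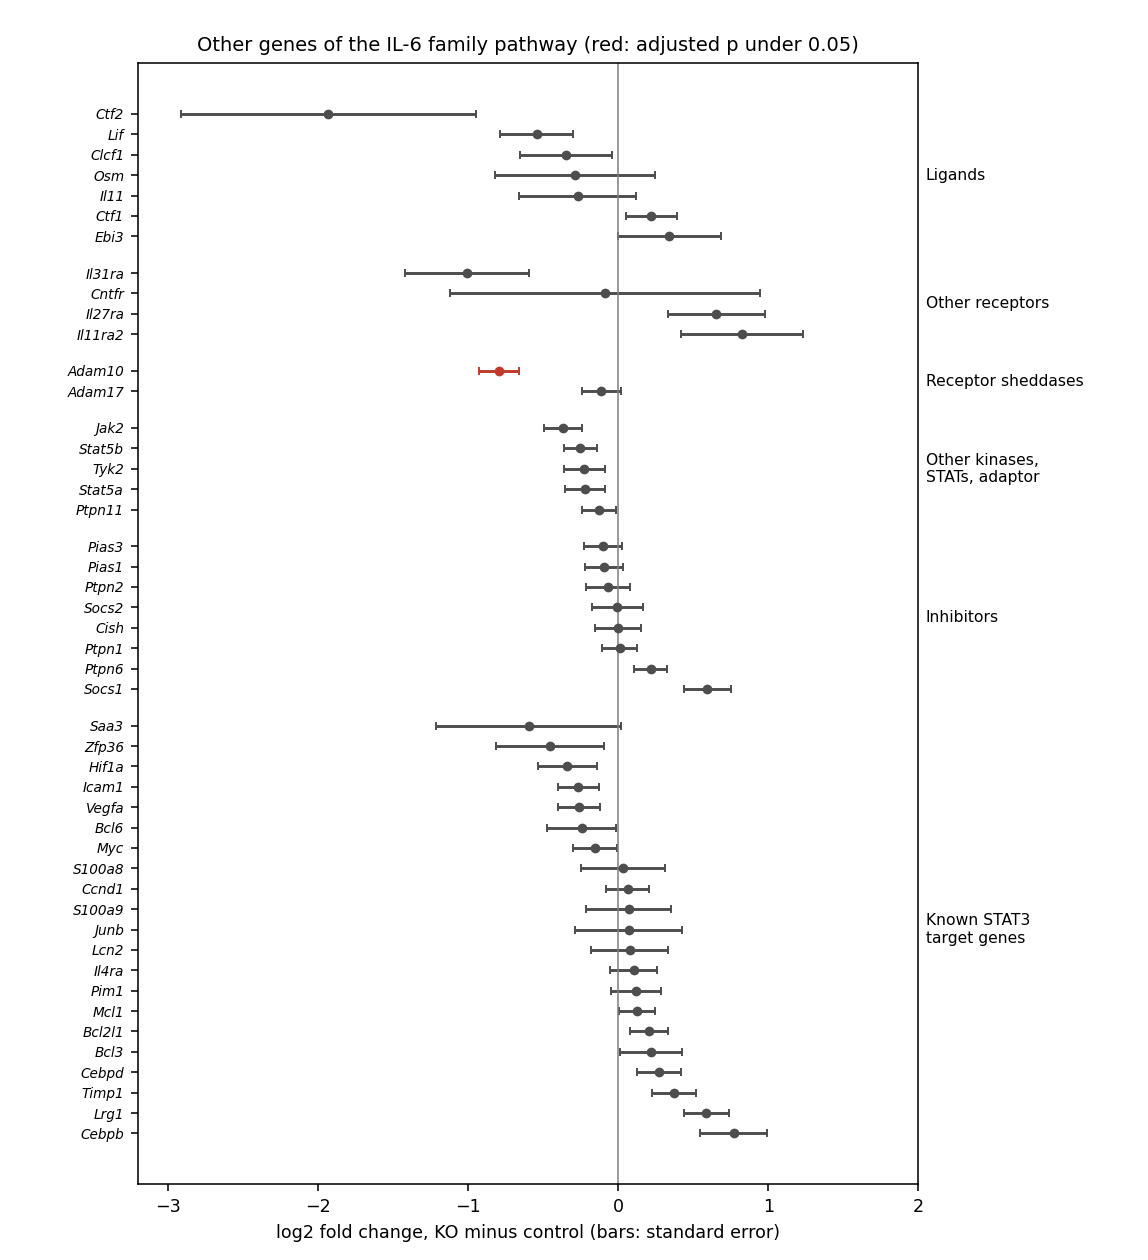
Log2 fold change of KO minus control (x axis, bars are standard errors) for 47 of the 49 tested pathway genes outside the 8 members, grouped by role. Adam10, in red, passed the adjusted threshold at -0.80, and the genes in grey did not.

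The genes most like Il6ra over the 5 libraries were Adgrf2, Zfp874b, Arhgef12, Mospd2 and Tarbp1. They were those with the smallest root mean square difference in centred log2 CPM among 13839 named genes with a mean of at least 1 CPM. Adgrf2, an adhesion G protein-coupled receptor gene, differed by 0.0182 and had 5.49, 4.75 and 5.73 CPM in controls and 3.23 and 3.41 CPM in KO. Arhgef12, an activator of the GTPase RhoA, differed by 0.0455 and had 179.8, 154.6 and 193.0 CPM in controls and 111.3 and 119.4 CPM in KO. Zfp874b differed by 0.0427, Mospd2 by 0.0578 and Tarbp1 by 0.0609. As in Il6ra, control replicate 2 was the lowest control for all 5 of them. They were picked for likeness over these same libraries, so this adds no evidence. None lies on chromosome 3.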

How the data were processed

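The authors deposited whole-number read counts per Entrez gene for 5 ear skin libraries, not normalized. Per the submitters' processing notes the tools included FastQC, HISAT2 2.0.4 and DESeq2 1.16.1, with GRCm38 (mm10). The counting program, strand setting and treatment of shared reads are not stated in the sources used here, so reads of overlapping or similar genes can be misassigned. Symbols and positions came from RefSeq GRCm38.p6 (25275 of 27179 identifiers), and transcript length and GC content from GENCODE (90.5% of tested genes).

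Genes were filtered with filterByExpr, scaled with TMM and tested with edgeR 4.0.16 (quasi-likelihood, robust, R 4.3.3) over 17472 genes with Benjamini-Hochberg adjustment. Standard errors are the log2 fold change divided by the root of F. The biological coefficient of variation was 0.154. Offsets were smooth trends from mgcv 1.9.3 fitted per library. Fits were tested on simulated data. Counts of libraries within a group differed beyond sampling noise (chi-square per degree of freedom 23.0 to 76.9).

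The members and lists were chosen with earlier results of these data known. The text names the 8 members, pathway genes by smallest p or for their role, the 5 genes most like Il6ra, and Cd1d1. Up to 4 pathway genes of a role were named in this way, and more for the ligands. Ccl27a, Raver2 and Gm13305 were added by position or similarity, and Junb, Zfp36, Bcl6 and Mcl1 after their values were seen. Single cell type markers were also named after their values were seen. Single values of 2 pathway genes are not reported here. A planned search of receptor proteins was not run, as no protein sequences were used here. Alternatives were other scalings, filters, tests (DESeq2 1.42.0, limma 3.58.1), offsets, the replicate block and leaving out each library. With 1 KO library left, its spread is taken to equal that of the controls.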

Additional observations from a re-analysis of the deposited data

How the results depend on the processing

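Library size scaling, in which the median of all genes shifted to -0.17, gave a log2 fold change of -0.84 for Il6ra, 1242 genes past the threshold and 2 pathway genes. Length and GC offsets gave -0.41 for Il6ra. In that fit 587 genes passed, but only 240 of them were among the 657 of the fit without offsets. Near Cd1d1 12 genes passed there, with 7 of them among the 17 without offsets. Length offsets alone gave -0.39 for Il6ra, 21 genes in all, 0 of the 8 members and 0 of 49 pathway genes (edgeR, 2 and 6 at an unadjusted p under 0.05) and 1 near Cd1d1. Without a count filter 1036 genes and 3 pathway genes passed. DESeq2 called 1834 genes, 4 members, 4 pathway genes and 28 near Cd1d1. With the replicate number as a block (replicate block) 2037 genes, 4 members, 8 pathway genes and 30 near Cd1d1 passed, and Cntfr went from -0.09 to 0.73. The replicate block with length and GC offsets gave -0.35 for Il6ra, 1 member and 6 genes near Cd1d1. It called 593 genes in all, of which 191 were among the 657. The numbers do not pair the libraries by any label, and deviations of same-numbered libraries correlated at 0.016 and 0.064.

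Leaving out each library moved the count of all genes between 0 (without control replicate 1, edgeR, 2253 at an unadjusted p under 0.05) and 3277 (without control replicate 3). It was 1 without KO replicate 1, 128 without KO replicate 2 and 1334 without control replicate 2. The count of members moved between 0 and 4, of pathway genes between 0 and 10 and of genes near Cd1d1 between 0 and 44, while Il6ra lay between -0.78 and -0.63. In these changes the cause was not tested. Il6ra, Osmr and Lifr were negative and Il11ra1 positive in each of the 17 alternatives, whereas Il6st and Stat3 were negative in 14, Jak1 in 16 and Socs3 in 15. The other alternatives left each count within 1.5 times its value, which does not mean that the same genes were called. The 2 KO libraries limit the precision of every difference, and ligands such as Il6 are limited by depth.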
